A study of Mus musculus with 12 samples.

Results

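The SMAD family and its SKI corepressors were followed in cultured mouse mesangial cells (MMC) with and without TGF-β. The genes are Smad1, Smad2, Smad3, Smad4, Smad5, Smad6, Smad7, Smad9, Ski and Skil, taken by symbol from the deposited gene counts, which gave 10 genes of the 25230 listed. All 10 had RPKM (counts scaled to exon length and library size) above 1 in at least 1 library and were tested among 11477 genes. For Smad9 this limit was reached by the serum-depleted groups alone, with a mean of 4.58 RPKM in WT-SD and 1.98 in KO-SD against 0.784 in WT-TGF and 0.370 in KO-TGF. In every library the 10 genes together took between 0.120% and 0.149% of the counts on genes.

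The study measured mRNA in MMC cultured from glomeruli of wild-type (WT) mice and of the lncMGC-KO5 line, to ask what the long non-coding RNA lncMGC does to the transcriptome and to the response to TGF-β. The 4 groups of 3 libraries were WT, serum-depleted (WT-SD), WT given TGF-β at 10 ng/ml for 24 h (WT-TGF), lncMGC_KO, serum-depleted (KO-SD) and lncMGC_KO given the same TGF-β (KO-TGF). The KO mice came from C57BL/6J embryos edited with Cas9 and a pair of guides at the start of lncMGC, were crossed with C57BL/6 mice and bred to homozygotes, so that the KO cells stand for a single edited line with a small deletion. Ages, sexes, the number of mice behind the pooled glomeruli and the strain of the WT mice are not stated in the sources used here, and the samples of a group are described as independent without saying whether by culture or by animal, so the p-values measure the spread between these libraries.

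The counted genes held no entry for lncMGC, and the genotype labels could not be checked on it. Levels in CPM are counts scaled to library size corrected by TMM (trimmed mean of M values). Mirg, which overlaps the downstream part of lncMGC, was at 2.14 to 2.69 CPM in WT-SD and 3.45 to 3.75 in WT-TGF. It was at 3.31 to 4.30 in KO-SD and 3.64 to 4.65 in KO-TGF, so that it was not lower in the libraries labelled KO. Mirg lies outside the deleted start of lncMGC, so its counts do not show the deletion itself. The paper's own measurement of Mirg is not reported here. Depth was even, between 19898050 and 22827706 counts on genes. The summed level of 11 mesangial markers was 4819 to 4998 CPM in WT-SD, 8990 to 9241 in WT-TGF, 7640 to 7695 in KO-SD and 14740 to 14900 in KO-TGF. Between genotypes, 7 of the 9 tested were called higher and 2 lower for KO in SD, and 6 higher and 3 lower for KO in TGF. Acta2 was higher, at 1570 CPM in WT-SD and 3250 in KO-SD, and Des lower, at 7.68 and 0.529. Pdgfrb stood at group means of 289 to 383 CPM, while Thy1 was at or near 0 in every group. The summed markers of other cell types were lower in the libraries labelled KO, though not every single marker was. The summed level of 11 macrophage markers was 29.1 to 31.2 CPM in WT-SD and 17.8 to 21.9 in WT-TGF against 2.20 to 2.61 in KO-SD and 1.12 to 1.71 in KO-TGF, where Adgre1, Tyrobp, C1qa, C1qb and C1qc were at 0. The sum of 7 podocyte markers was 456 to 474 CPM in the WT groups and 205 to 227 in the libraries labelled KO, with Nphs1 at or near 0 throughout. For 8 endothelial markers the sum was 51.6 to 65.9 CPM against 23.6 to 29.5, with Cdh5 and Emcn at or near 0. Ehd3 (32.7 CPM in WT-SD) and Flt1 (19.0) made up nearly all of that sum in WT-SD. Pecam1, Kdr, Tek and Egfl7 had means under 1 CPM in every group. From WT-SD to KO-SD Pecam1 (0.060 to 0.155 CPM), Kdr (0.285 to 0.375) and Tek (0.076 to 0.218) went up. From WT-TGF to KO-TGF Tek went up, and Pecam1 and Kdr went down. The 9 tubular markers summed to 68.0 to 75.0 CPM in WT-SD, 17.9 to 19.8 in WT-TGF, 14.4 to 15.9 in KO-SD and 7.03 to 7.49 in KO-TGF, with Slc34a1, Aqp2 and Umod at 0. Lrp2 (42.7 CPM in WT-SD) and Cdh16 (27.5) made up most of the WT-SD sum. Slc12a1 went the other way, from 0.358 CPM in WT-SD to 1.25 in KO-SD and from 0.842 in WT-TGF to 3.05 in KO-TGF. The part of any of these markers in the genotype differences of the SMAD genes was not tested, and in bulk libraries fewer cells of a type and less RNA per cell cannot be told apart.

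SMAD proteins carry the signal of the TGF-β superfamily from the receptors to the nucleus. SMAD2 and SMAD3 are phosphorylated by the receptors for TGF-β and activin, SMAD1, SMAD5 and SMAD9 by those for bone morphogenetic proteins (BMP), and both kinds join SMAD4 to bind DNA. SMAD6 and SMAD7 inhibit the pathway at the receptors and by recruiting ubiquitin ligases, and SKI and its relative SKIL (SnoN) bind SMAD complexes and repress their target genes. In mesangial cells TGF-β drives the synthesis of extracellular matrix, and Smad7 and Skil are textbook examples of targets that feed back on the pathway.

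Sequences upstream of the transcription start are shown for the members that fell with TGF-β in WT, Smad3, Smad6 and Smad9, since these share a direction of change. They were taken from RefSeq promoter entries on GRCm38.p6, which held 6 of the 10 genes (Smad1, Smad3, Smad5, Smad6, Smad9 and Ski). The entries cover the 250 bases before the start, at chr9:63757995-63758244 on the minus strand for Smad3, chr9:64022060-64022309 on the minus strand for Smad6 and chr3:54755332-54755581 on the plus strand for Smad9. RefSeq's widest spans of Smad6 and Smad9 begin inside these windows. Capitals mark GTCT or its reverse complement AGAC, the core of the SMAD binding element, and GGCGCC, a GC-rich SMAD motif that reads the same on both strands.
Smad3: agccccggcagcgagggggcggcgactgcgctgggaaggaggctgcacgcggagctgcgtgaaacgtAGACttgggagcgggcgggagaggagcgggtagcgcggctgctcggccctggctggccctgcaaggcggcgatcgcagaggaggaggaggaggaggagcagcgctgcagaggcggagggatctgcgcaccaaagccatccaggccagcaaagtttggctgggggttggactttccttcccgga
Smad6: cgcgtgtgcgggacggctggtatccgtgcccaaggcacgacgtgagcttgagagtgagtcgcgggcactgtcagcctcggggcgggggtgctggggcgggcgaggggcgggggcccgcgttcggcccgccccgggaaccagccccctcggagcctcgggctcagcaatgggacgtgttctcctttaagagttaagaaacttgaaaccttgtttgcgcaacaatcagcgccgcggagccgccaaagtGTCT
Smad9: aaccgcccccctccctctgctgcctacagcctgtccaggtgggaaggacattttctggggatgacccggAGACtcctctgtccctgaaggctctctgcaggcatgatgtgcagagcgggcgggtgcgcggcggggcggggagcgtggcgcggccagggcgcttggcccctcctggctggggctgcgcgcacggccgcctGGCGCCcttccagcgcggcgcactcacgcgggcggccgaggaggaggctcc
Each of the 3 windows held GTCT or AGAC once, 183 bases before the start in Smad3, 4 bases before it in Smad6 and 181 bases before it in Smad9. Such a match was found in 82.86% of the 32851 windows of this length. GGCGCC was found in the windows of Smad9, 51 bases before the start, of Ski, 220 bases before it, and of 1 of 3 starts of Smad5, 19 bases before it, against 9.586% of all windows. This motif holds only G and C, and the windows of the members were 60.0% (a Smad5 start) to 87.6% (Ski) G or C. The median of all windows was 52.4%, so the shares are not like for like, and enrichment was not tested. The longer elements GTCTAGAC (0.1674% of all windows) and CAGACA or TGTCTG (17.13%) were not among the letters of any of these windows. The genes of Smad3 (chr9:63646766-63757994, minus strand) and Smad6 (chr9:63953076-64022085, minus strand) lie 195 kb apart. Smad9 is at chr3:54755455-54801662 and Skil at chr3:31095058-31122923, both on the plus strand, Ski at chr4:155154075-155222535 on the minus strand, Smad1 at chr8:79338395-79399428 on the minus strand and Smad5 at chr13:56703010-56742378 on the plus strand. No counted gene overlapped a member.

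The members moved in both directions with TGF-β. In WT MMC, 4 members rose (Skil, Smad7, Ski and Smad5), 3 fell (Smad9, Smad6 and Smad3) and 3 were not called in edgeR (quasi-likelihood test, FDR <5%), where 72.5% of all genes tested were called, 35.9% higher and 36.5% lower. With TGF-β in KO, 3 members rose (Skil, Smad7 and Smad1), 5 fell (Smad9, Smad6, Smad3, Smad5 and Ski) and 2 were not called, against 74% of all genes, 35% higher and 39% lower. The share of members called was thus near that of all genes, and the median log2 fold change of the 10 members, 0.023 in WT and -0.051 in the libraries labelled KO, lay near that of all genes tested, -0.0057 and -0.024. Past a fold change of 2 were Skil, upwards, and Smad9, downwards, in both genotypes, where 9.86% of all genes in WT and 13.5% in the libraries labelled KO passed this limit. With library sizes that were not corrected by TMM (library size alone), the scaling shifted the median of all genes with TGF-β by -0.15 in WT and -0.20 in KO, and with it the log2 fold change of Smad5 in WT turned to -0.078, that of Ski in WT to -0.040 and that of Smad1 in KO to -0.0016. Of all called genes the share that rose went with that scaling from 49.6% to 30.4% in WT and from 47.3% to 25.5% in KO.

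**Figure D1:**
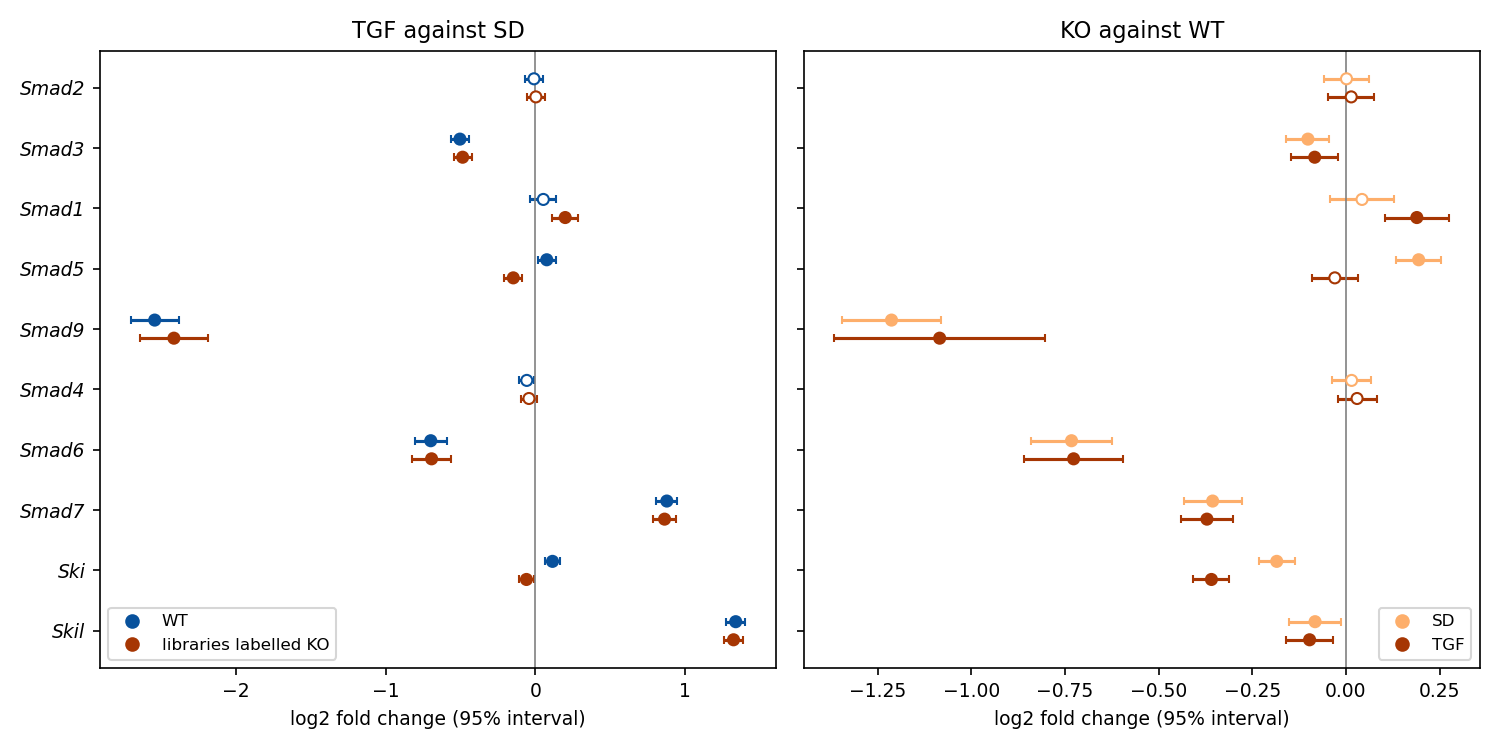
Log2 fold changes of the 10 members with 95% intervals from edgeR, TGF against SD on the left for WT and the libraries labelled KO, and KO against WT on the right for SD and TGF; filled points passed FDR <5%. On the left the points of the genotypes lie close together for Skil (1.34 and 1.33), Smad7 (0.88 and 0.86), Smad6 (-0.70 and -0.69), Smad3 (-0.50 and -0.49) and Smad9 (-2.54 and -2.42), and on opposite sides of 0 for Smad5 and Ski, where with library size alone both Smad5 points and both Ski points lie below 0.

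Skil, the corepressor SnoN, rose most. Its level was 147, 142 and 143 CPM in the WT-SD libraries and 377, 359.6 and 356 in WT-TGF, and 145, 129 and 133 in KO-SD and 347, 332 and 343 in KO-TGF. All treated libraries lay far above the untreated ones, with no overlap in either genotype. This was a 2.53-fold rise in WT (log2 fold change 1.34, SE 0.033, edgeR adjusted p = 2.41e-25) and a 2.51-fold rise in the libraries labelled KO (1.33, SE 0.034, adjusted p = 4.09e-25), and the difference between the responses was -0.015 on the log2 scale (95% interval -0.11 to 0.077, edgeR adjusted p = 0.869). Between genotypes Skil was slightly lower in the libraries labelled KO, with log2 fold changes of -0.082 in SD (edgeR adjusted p = 0.0456) and -0.097 in TGF (edgeR adjusted p = 0.00982). The libraries overlapped in SD, where KO replicate 1 lay above WT replicates 2 and 3, and the call in SD was lost when any WT-SD library, KO-SD replicate 2 or KO-SD replicate 3 was left out, with values of -0.046 to -0.13 over all libraries left out in turn, and with a filter on CPM (-0.069) or no filter (-0.052). The call in TGF was lost without WT-TGF replicate 1 (-0.073) or KO-TGF replicate 2 (-0.061).

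Ski, the founding corepressor of the family, was high throughout and moved little with TGF-β. It stood at 339, 329.9 and 334 CPM in WT-SD, 360.0, 365 and 359.9 in WT-TGF, 289.7, 293 and 298 in KO-SD and 279, 280.0 and 287 in KO-TGF. In WT all treated libraries lay above the untreated ones, and in the libraries labelled KO all treated ones lay below. The log2 fold change with TGF-β was 0.12 in WT (SE 0.024, edgeR adjusted p = 9.16e-05) and -0.059 in KO (SE 0.025, edgeR adjusted p = 0.0324). These opposite directions depended on the scaling, since with library size alone the values were -0.040 in WT, not called, and -0.26 in KO. The response in KO minus that in WT was -0.17 (95% interval -0.24 to -0.11, edgeR adjusted p = 0.000226). Ski was lower in the libraries labelled KO both in SD (-0.18, SE 0.024, edgeR adjusted p = 1.17e-07) and in TGF (-0.36, SE 0.024, edgeR adjusted p = 9.41e-14), with no overlap of libraries. The fall of Ski with TGF-β in KO was not called in 9 of 18 alternative settings, among them those without KO-SD replicate 2 (-0.061) or 3 (-0.048) or without KO-TGF replicate 1 (-0.030), 2 (-0.033) or 3 (-0.053), whereas the difference between the responses was called in all 17.

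Smad7, an inhibitory SMAD, rose with TGF-β from a lower level in the libraries labelled KO. The libraries were at 72.4, 80.4 and 73.1 CPM in WT-SD, 141, 138 and 137 in WT-TGF, 60.6, 58.6 and 57.4 in KO-SD and 107.5, 106.7 and 107.3 in KO-TGF. No group overlapped another, and the KO-TGF libraries lay between the WT-SD and the WT-TGF libraries. The rise was 1.84-fold in WT (log2 fold change 0.88, SE 0.036, edgeR adjusted p = 1.15e-19) and 1.82-fold in KO (0.86, SE 0.039, edgeR adjusted p = 8.33e-19). The level in the libraries labelled KO was lower by a log2 fold change of -0.36 in SD (SE 0.039, edgeR adjusted p = 4.31e-09) and -0.37 in TGF (SE 0.035, edgeR adjusted p = 1.94e-10), and the responses differed by -0.015 (95% interval -0.12 to 0.089, edgeR adjusted p = 0.882).

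Smad6, the inhibitory SMAD known chiefly for restraining BMP signaling, moved the opposite way to Smad7 with TGF-β. Its values were 48.0, 42.7 and 48.4 CPM in WT-SD, 26.8, 29.3 and 29.5 in WT-TGF, 25.7, 28.9 and 29.1 in KO-SD and 17.5, 16.7 and 17.6 in KO-TGF. The untreated libraries labelled KO thus overlapped the treated WT libraries, and the treated libraries labelled KO were the lowest. Smad6 fell 1.62-fold with TGF-β in WT (log2 fold change -0.70, SE 0.055, edgeR adjusted p = 1.20e-12) and 1.62-fold in KO (-0.69, SE 0.067, edgeR adjusted p = 1.20e-10). It was 1.66-fold lower in the libraries labelled KO both in SD (-0.73, SE 0.055, edgeR adjusted p = 8.71e-13) and in TGF (-0.73, SE 0.067, edgeR adjusted p = 9.28e-11), and the difference between the responses was 0.0056 (95% interval -0.17 to 0.18, edgeR adjusted p = 0.978). The ratio of Smad7 to Smad6 per exon length went from 1.16 ± 0.152 (SD, n = 3) in WT-SD to 3.45 ± 0.238 in WT-TGF, and from 1.503 ± 0.149 in KO-SD to 4.41 ± 0.114 in KO-TGF.

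Smad9, the least expressed of the BMP-regulated SMADs, fell most. It had 25.1, 24.6 and 24.1 CPM in the WT-SD libraries, 3.97, 4.37 and 4.30 in WT-TGF, 11.3, 10.4 and 10.2 in KO-SD and 2.09, 2.14 and 1.73 in KO-TGF, from 33 to 567 counts per library. No library of any group overlapped another group. With TGF-β it fell 5.84-fold in WT (log2 fold change -2.54, SE 0.081, edgeR adjusted p = 1.96e-22), which placed it among the 1.48% of genes with the largest changes, and 5.34-fold in KO (-2.42, SE 0.12, edgeR adjusted p = 7.01e-18). In the libraries labelled KO it was 2.32-fold lower in SD (-1.21, SE 0.067, edgeR adjusted p = 6.50e-16) and 2.12-fold lower in TGF (-1.08, SE 0.14, edgeR adjusted p = 1.36e-07), and the difference between the responses was 0.13 (95% interval -0.20 to 0.46, edgeR adjusted p = 0.662).

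The other BMP-regulated SMADs, Smad1 and Smad5, changed far less. Smad5 was at 139, 135 and 131 CPM in WT-SD, 145, 141 and 142 in WT-TGF, 160.4, 149 and 154 in KO-SD and 142, 138 and 139 in KO-TGF. The KO-SD libraries were the highest, the WT-TGF libraries lay above those of WT-SD, and the KO-TGF libraries overlapped both WT groups. The log2 fold change with TGF-β was 0.077 in WT (SE 0.031, edgeR adjusted p = 0.0270) and -0.15 in KO (SE 0.031, edgeR adjusted p = 0.000102), and the response in KO minus that in WT was -0.22 (95% interval -0.31 to -0.14, edgeR adjusted p = 0.000202). Smad5 was 1.14-fold higher in the libraries labelled KO in SD (0.19, SE 0.031, edgeR adjusted p = 2.79e-06) and was not called in TGF (-0.030, edgeR adjusted p = 0.441), where with library size alone it was called lower (-0.15). The rise in WT turned negative with library size alone and was not called in 7 other settings of 18, namely DESeq2 (0.068) and the fits without WT-SD replicate 2 (0.078) or 3 (0.054), without WT-TGF replicate 1 (0.067) or without any KO-TGF library (0.060 to 0.061).

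Smad1 was at 36.8, 38.3 and 35.7 CPM in WT-SD, 37.2, 38.4 and 39.3 in WT-TGF, 37.8, 38.9 and 37.4 in KO-SD and 43.7, 42.9 and 44.5 in KO-TGF. The KO-TGF libraries stood above the other 9, which overlapped. In the libraries labelled KO Smad1 rose with TGF-β by 0.20 on the log2 scale (SE 0.044, edgeR adjusted p = 0.000159), and in TGF it was higher than in WT by 0.19 (SE 0.044, edgeR adjusted p = 0.000504). Neither was called with library size alone, where the values were -0.0016 and 0.069. In WT the log2 fold change with TGF-β was 0.054 (95% interval -0.032 to 0.14, edgeR adjusted p = 0.272). The difference between the responses, 0.15 (95% interval 0.025 to 0.27), was not called in edgeR (adjusted p = 0.0855), and was called when KO-TGF replicate 1 (0.18) or KO-TGF replicate 2 (0.20) was left out. The ratio of Smad5 to Smad9 per exon length was 3.97 ± 0.0481 (SD, n = 3) in WT-SD, 24.5 ± 1.60 in WT-TGF, 10.5 ± 0.371 in KO-SD and 51.3 ± 5.86 in KO-TGF, while that of Smad5 to Smad1 stayed between 2.70 and 3.43.

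The SMADs that the TGF-β receptors activate went apart. Smad3 had 155, 153 and 153 CPM in WT-SD, 107.7, 107.1 and 110.4 in WT-TGF, 140.0, 143 and 146 in KO-SD and 103, 98.7 and 105 in KO-TGF, with no overlap between any of the 4 groups. It fell 1.42-fold with TGF-β in WT (log2 fold change -0.50, SE 0.030, edgeR adjusted p = 1.62e-15) and 1.40-fold in KO (-0.49, SE 0.031, edgeR adjusted p = 6.30e-15). Its level was lower in the libraries labelled KO, with log2 fold changes of -0.10 in SD (95% interval -0.16 to -0.044, edgeR adjusted p = 0.00397) and -0.083 in TGF (-0.15 to -0.021, edgeR adjusted p = 0.0267). The call in SD was lost without a filter on low genes (-0.071), and the call in TGF was lost with DESeq2 (-0.069), without a filter (-0.070), without WT-TGF replicate 3 (-0.070) and without any of the KO-TGF libraries (-0.041 to -0.084).

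Smad2 lay between 113 and 120.4 CPM in all 12 libraries, with overlapping groups. Its log2 fold change was -0.0085 with TGF-β in WT (95% interval -0.070 to 0.053, edgeR adjusted p = 0.817) and 0.0042 in KO (-0.058 to 0.066, edgeR adjusted p = 0.911), and 0.0015 in SD and 0.014 in TGF between genotypes. With library size alone it was called lower in all of these comparisons, at -0.16 in WT and -0.20 in KO with TGF-β and at -0.072 in SD and -0.11 in TGF between genotypes. The ratio of Smad3 to Smad2 per exon length went from 2.09 ± 0.0605 (SD, n = 3) to 1.48 ± 0.0586 with TGF-β in WT and from 1.94 ± 0.0613 to 1.38 ± 0.0745 in the libraries labelled KO. Smad4, the shared partner, lay between 195 and 212 CPM in all libraries and was not called in any comparison. In both genotypes its treated libraries lay below the untreated ones with no overlap. With TGF-β in KO the log2 fold change of Smad4 was -0.042 (95% interval -0.094 to 0.0097, edgeR adjusted p = 0.151), and -0.24 and called with library size alone. Its log2 fold change with TGF-β was -0.057 in WT (95% interval -0.11 to -0.0053, edgeR adjusted p = 0.0535), and in 10 of 18 alternative settings this small difference was called, at -0.21 with library size alone, -0.065 with DESeq2 and -0.059 in a fit of the WT groups alone. It was called too without WT-SD replicate 3 (-0.069), WT-TGF replicate 1 (-0.069), KO-SD replicate 1 (-0.057) or any KO-TGF library (-0.073).

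**Figure D2:**
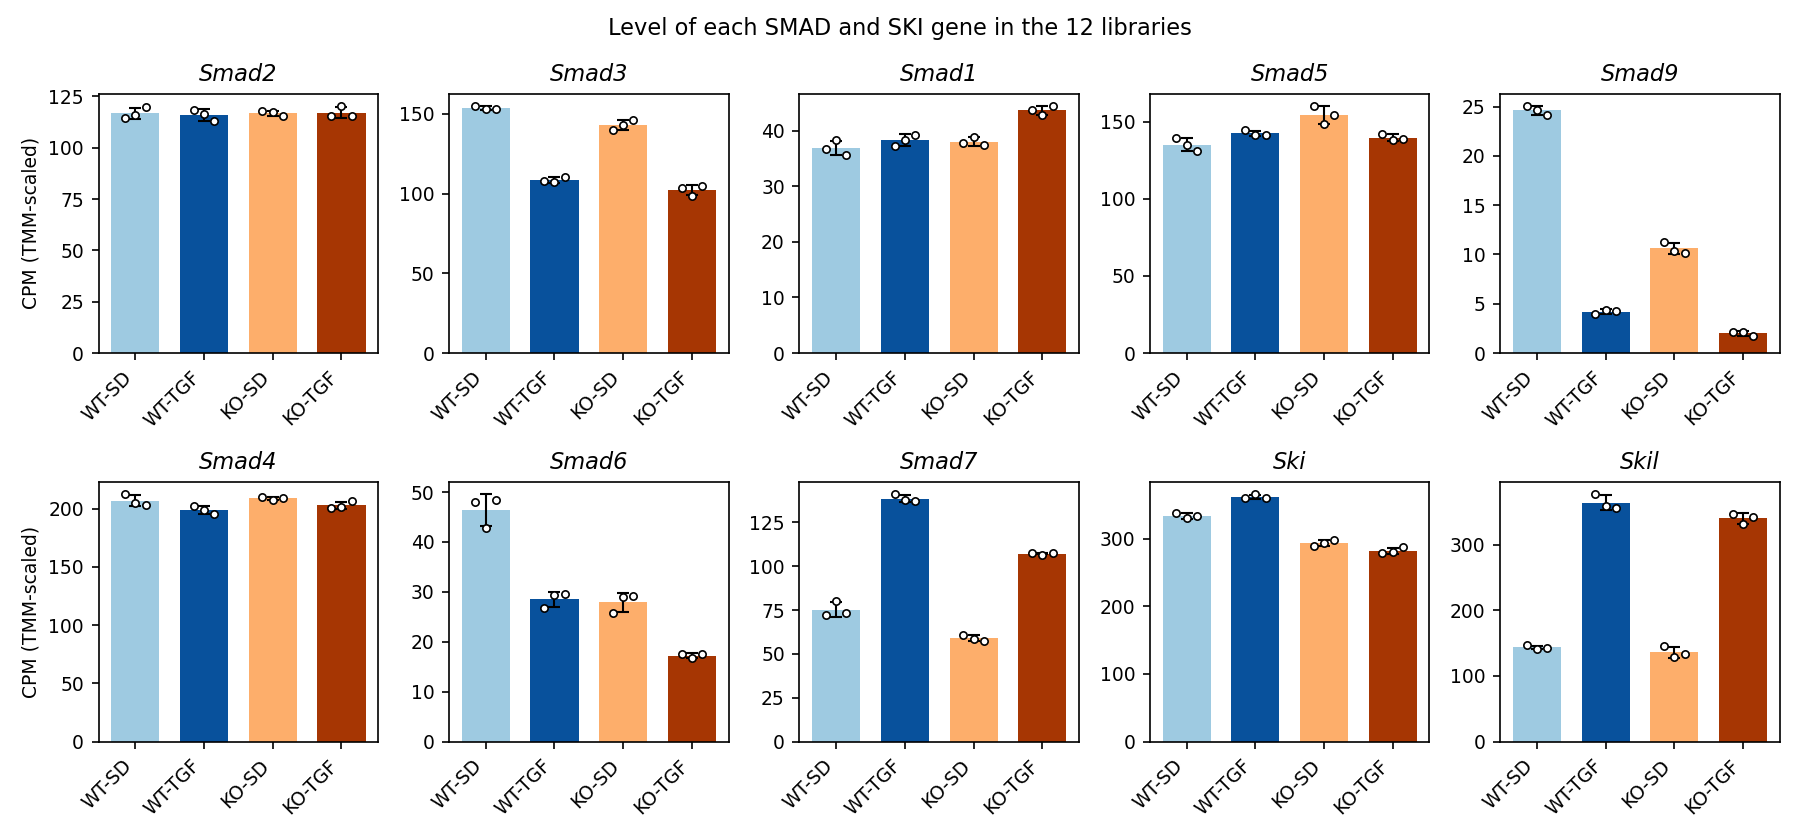
CPM of the 10 members in the 4 groups; bars are means of 3 libraries from 0, error bars are SD and points are libraries. The Skil libraries rise from 129 to 147 CPM in SD to 332 to 377 in TGF, those of Smad9 fall from 24.1 to 25.1 CPM in WT-SD to 1.73 to 2.14 in KO-TGF, and those of Smad2 stay between 113 and 120.4 CPM.

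Levels of different genes were compared per exon length. In WT-SD the order was Ski (60.1 ± 0.778 RPKM, SD, n = 3), Smad4 (55.7 ± 1.29), Smad3 (27.7 ± 0.213), Smad5 (18.2 ± 0.568), Smad7 (16.7 ± 0.976), Skil (14.8 ± 0.248), Smad6 (14.5 ± 0.990), Smad2 (13.3 ± 0.308), Smad1 (5.89 ± 0.214) and Smad9 (4.58 ± 0.0876). The libraries of the neighbors Smad5 and Smad7, Skil and Smad6, and Smad6 and Smad2 overlapped, so these pairs did not differ beyond their spread. In WT-TGF Skil stood at the rank 3 with 37.6 ± 1.16 RPKM and Smad7 at the rank 4 with 30.7 ± 0.459, above Smad3 (19.6 ± 0.323) and Smad5 (19.2 ± 0.252), which overlapped. In the libraries labelled KO Smad4 came before Ski, with 56.3 ± 0.336 against 52.8 ± 0.784 RPKM in SD and 54.7 ± 0.781 against 50.7 ± 0.822 in TGF. The overlapping neighbors were Skil and Smad2 and Smad2 and Smad7 in KO-SD, and Smad5 and Smad3 in KO-TGF. With the length of the longest transcript in place of the exon union, Smad4 (61.1 RPKM) was above Ski (60.5) in WT-SD too, and Skil (21.4) stood above Smad5 (20.5) and Smad7 (17.6) there.

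The summed level of the 8 SMAD genes was 157 ± 1.76 RPKM (SD, n = 3) in WT-SD, 152 ± 1.10 in WT-TGF, 146 ± 0.602 in KO-SD and 142 ± 1.22 in KO-TGF. Smad4 held 35.6% of it in WT-SD, 35.2% in WT-TGF, 38.5% in KO-SD and 38.6% in KO-TGF. The share of Smad7 was 10.6% in WT-SD and 20.2% in WT-TGF, and 8.91% in KO-SD and 16.7% in KO-TGF, while that of Smad3 was 17.7% in both untreated groups and 12.9% in WT-TGF and 13.0% in KO-TGF. Per length Smad7 was below Smad3 in the untreated groups, with ratios of 0.601 ± 0.0382 in WT-SD and 0.504 ± 0.0253 in KO-SD, and above it in the treated ones, with 1.57 ± 0.0406 in WT-TGF and 1.29 ± 0.0353 in KO-TGF. The ratio of Skil to Ski was 0.247 ± 0.00113 in WT-SD and 0.578 ± 0.0202 in WT-TGF, and 0.265 ± 0.0195 in KO-SD and 0.693 ± 0.0187 in KO-TGF. With the longest transcript this ratio was 0.354, 0.828, 0.380 and 0.993 in the same order. These ratios are descriptions without a test.

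**Figure D3:**
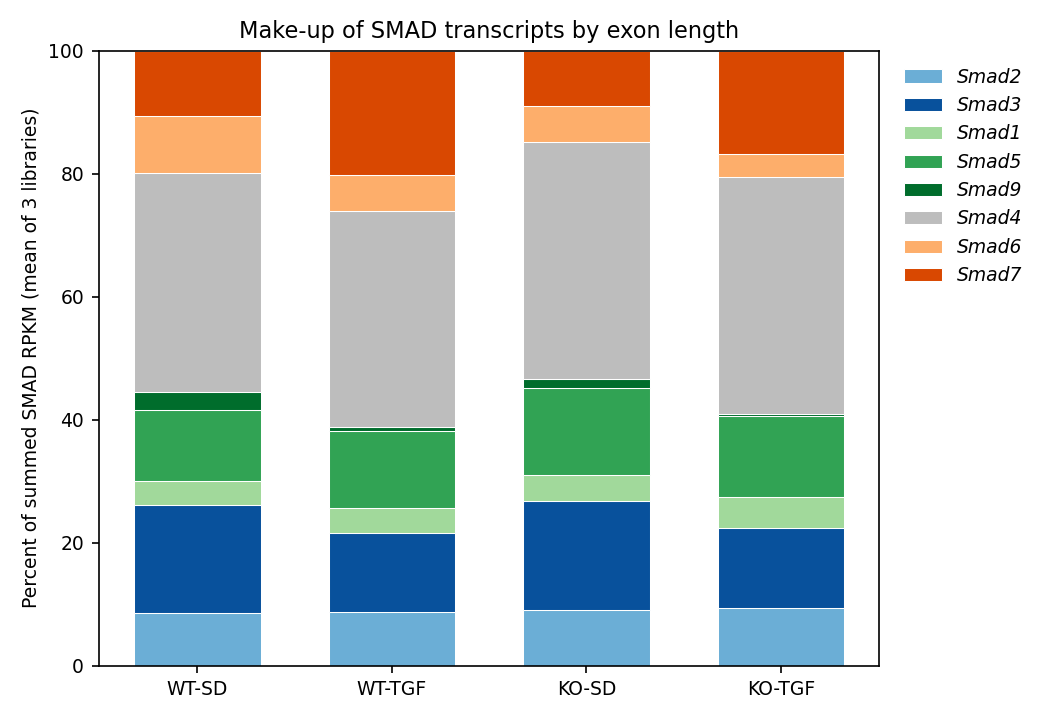
Share of each SMAD gene in the summed SMAD RPKM of a group, as the mean of 3 libraries. Smad7 goes from 10.6% in WT-SD to 20.2% in WT-TGF and Smad3 from 17.7% to 12.9%, while Smad9 is a thin band of 2.93% in WT-SD and 0.261% in KO-TGF.

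Between genotypes most of the called members were lower in the libraries labelled KO. In SD 1 member was higher (Smad5) and 6 were lower (Smad9, Smad6, Smad7, Ski, Smad3 and Skil), where 55.9% of all genes tested were called, 30.6% higher and 25.3% lower. In TGF 1 member was higher (Smad1) and the same 6 were lower, where 55.1% of all genes were called, 27.3% higher and 27.9% lower. Smad9 alone passed a fold change of 2, as did 6.36% of all genes in SD and 5.96% in TGF. The median log2 fold change of the members was -0.092 in SD and -0.090 in TGF, against 0.018 and -0.0036 for all genes. With library size alone the median of all genes shifted by -0.073 in SD and -0.12 in TGF and the share of higher calls went from 54.8% to 36.8% and from 49.5% to 23.3%. The 6 lower members stayed lower and called in both, which a downward shift of all genes cannot test. The counts of members were then 1 higher and 7 lower in SD, with Smad2 (-0.072) added, and 0 higher and 9 lower in TGF, with Smad2 (-0.11), Smad4 (-0.090) and Smad5 (-0.15) added. Over all 18 alternative settings Skil lost its lower call in 7 in SD and 2 in TGF, and Smad3 in 1 in SD and 6 in TGF. Groups of libraries did not overlap for 6 members in SD and 7 in TGF, where 59.2% and 61.6% of all genes did not overlap, and for 8 members with TGF-β in WT and 9 in KO, where it was 75.2% and 74.3%. For the responses to TGF-β, 2 members, Smad5 and Ski, had a lower response in KO and none a higher one at FDR <5% in edgeR, where 25.4% of all genes were called, 16.6% lower and 8.77% higher, and 2.74% differed more than 2-fold against no member. At an unadjusted p under 0.05 Smad1 was the only member with a higher response, and DESeq2 called none higher. The comparisons share groups of libraries, the WT-SD libraries with TGF-β in WT and with KO in SD for example, so they are not independent of each other.

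Upstream of the SMADs, 18 of 24 ligands and receptors were tested, of which 9 rose and 8 fell with TGF-β in WT, and 9 rose and 6 fell in KO (8 and 9 in each with library size alone), where 72.5% and 74% of all genes were called. Tgfb1, the ligand itself, rose from 59.6 ± 0.153 CPM in WT-SD to 284 ± 3.71 in WT-TGF (log2 fold change 2.25, edgeR adjusted p = 2.98e-32) and from 70.3 ± 2.24 in KO-SD to 331 ± 7.12 in KO-TGF (2.24). Inhba, a subunit of activin, which also signals through SMAD2 and SMAD3, rose from 408 ± 7.16 CPM in WT-SD to 1775 ± 114 in WT-TGF (2.12, edgeR adjusted p = 4.11e-27). Bmp6, a ligand of the BMP arm, fell from 59.0 ± 0.609 CPM in WT-SD to 20.3 ± 0.181 in WT-TGF (-1.54, edgeR adjusted p = 6.12e-22), and was lower in the libraries labelled KO, at 31.5 ± 2.001 CPM in SD and 12.4 ± 1.19 in TGF. Tgfbr3, the coreceptor betaglycan, fell from 123 ± 2.28 CPM in WT-SD to 47.7 ± 2.12 in WT-TGF (-1.37, edgeR adjusted p = 1.63e-23) and from 101.5 ± 4.75 in KO-SD to 34.4 ± 0.447 in KO-TGF (-1.56).

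Among genes that modify or carry SMAD proteins, 29 of 30 were tested, and 15 rose and 8 fell with TGF-β in WT against 15 and 7 in KO, beside the same 72.5% and 74% of all genes. With library size alone it was 7 and 13 in WT and 9 and 16 in KO. Pmepa1, a TGF-β target that binds receptor-regulated SMADs and limits their signal, rose from 172 ± 7.14 CPM in WT-SD to 1039 ± 7.44 in WT-TGF (log2 fold change 2.60, edgeR adjusted p = 3.69e-33) and from 192 ± 10.7 in KO-SD to 941 ± 5.26 in KO-TGF (2.29), and its response was lower in KO by -0.31 (edgeR adjusted p = 1.25e-06). Smurf1, a ubiquitin ligase that acts on SMAD1 and SMAD5 and works with SMAD7 at receptors, rose from 121 ± 1.95 CPM in WT-SD to 184 ± 2.71 in WT-TGF (0.60). Those that fell most were Ctdspl, a phosphatase of the family that dephosphorylates SMADs (102 ± 2.21 to 43.3 ± 1.26 CPM, -1.24), and Nedd4l, a ubiquitin ligase for activated SMAD2 and SMAD3 (69.6 ± 1.496 to 29.6 ± 1.67 CPM, -1.23).

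Of the nuclear partners, 28 of 30 were tested, and 12 rose and 9 fell with TGF-β in WT against 13 and 12 in KO, or 8 and 11 in WT and 9 and 17 in KO with library size alone, again beside 72.5% and 74% of all genes. Runx2, a transcription factor that binds SMADs, went from 23.0 ± 0.644 CPM in WT-SD to 74.8 ± 2.77 in WT-TGF (log2 fold change 1.70, edgeR adjusted p = 3.57e-24), and its relative Runx1 from 172 ± 3.56 to 459 ± 11.8 (1.42, edgeR adjusted p = 2.63e-27). Dach1, a corepressor related to SKI, fell from 15.9 ± 1.17 CPM in WT-SD to 7.46 ± 0.254 in WT-TGF (-1.09) and from 8.60 ± 0.963 in KO-SD to 2.52 ± 0.179 in KO-TGF (-1.77), a larger fall in KO by -0.68 (edgeR adjusted p = 0.00186). Rbl1, the pocket protein p107, fell from 17.5 ± 0.289 CPM in WT-SD to 10.5 ± 0.440 in WT-TGF (-0.73) and from 22.9 ± 1.63 in KO-SD to 9.91 ± 0.733 in KO-TGF (-1.21).

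Downstream, the textbook targets of the arms differed in direction. The lists were chosen by known regulation and with earlier results of these data known, so these directions are a description and not a test. The 12 targets of TGF-β and SMAD2 or SMAD3 compared here rose with TGF-β in WT (median log2 fold change 0.84, or 0.69 with library size alone, where Ltbp2 turned negative), and 11 rose and 1, Tgfbi, fell in KO (median 0.77, or 0.57 with library size alone, where Cdkn1a and Itgb5 turned negative). Pmepa1, described above, led these 12 in WT. Tgfbi, a matrix protein, came after it but was low throughout, at 0.480 ± 0.124 CPM in WT-SD and 2.59 ± 0.115 in WT-TGF (2.42, edgeR adjusted p = 9.54e-11) against 4.86 ± 0.408 in KO-SD and 3.84 ± 0.198 in KO-TGF (-0.34, edgeR adjusted p = 0.0205, and not called with DESeq2), a difference of -2.76 between the responses (edgeR adjusted p = 1.67e-09). Of 9 targets of BMP and SMAD1, SMAD5 or SMAD9, 7 were tested, of which 6 fell and 1, Hey1, rose with TGF-β in WT (median -0.99), and 5 fell and 1 rose in KO (median -0.98). With library size alone 6 fell and 1 rose in WT (median -1.14), and 6 fell and 0 rose in KO (median -1.18). Id2, an inhibitor of basic helix-loop-helix factors, fell from 34.3 ± 1.31 CPM in WT-SD to 6.15 ± 0.0930 in WT-TGF (-2.48, edgeR adjusted p = 8.50e-23) and from 18.2 ± 1.52 in KO-SD to 1.84 ± 0.398 in KO-TGF (-3.30). Atoh8, a basic helix-loop-helix factor, fell from 37.8 ± 1.70 CPM in WT-SD to 8.59 ± 0.4999 in WT-TGF (-2.13) and from 19.9 ± 0.567 in KO-SD to 4.32 ± 0.480 in KO-TGF (-2.20), whereas Hey1, a transcriptional repressor that is also a Notch target, rose from 2.01 ± 0.206 CPM in WT-SD to 5.63 ± 0.280 in WT-TGF (1.49). The BMP targets were lower in the libraries labelled KO, 6 of 7 in SD (median -0.76) and 6 of 7 in TGF (median -0.99), while of the TGF-β targets 6 were higher and 5 lower in SD, and 5 higher and 6 lower in TGF. These medians stand beside medians between -0.024 and 0.018 for all genes tested. Of all genes 72.5% were called with TGF-β in WT and 74% in KO. Between genotypes 55.9% were called in SD (30.6% higher, 25.3% lower) and 55.1% in TGF (27.3% higher, 27.9% lower).

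**Figure D4:**
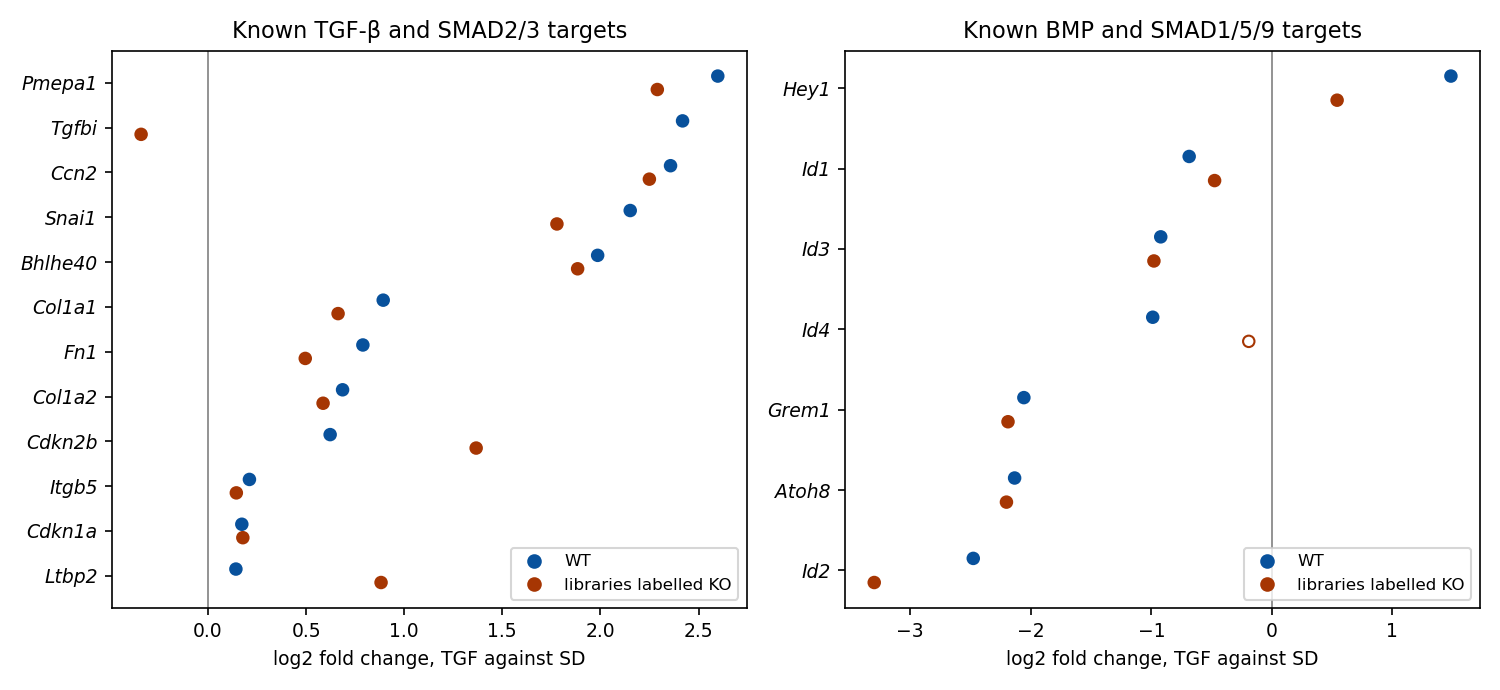
Log2 fold change with TGF-β of the textbook targets compared in WT and in the libraries labelled KO; filled points passed FDR <5% in edgeR. The 12 TGF-β targets lie above 0 in WT, Pmepa1 farthest at 2.60 (with library size alone Ltbp2 lies below 0), while 6 of the 7 BMP targets lie below 0 in WT, Id2 farthest at -2.48.

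Genes whose pattern over the 12 libraries was most like that of a member were found by the root mean square difference of log2 CPM after centring, among 11476 other genes. Nearest to Smad3 were Nacc2 (0.040), Cdk6 (0.043) and Cic (0.045), where the median gene was at 0.33. Nearest to Smad7 were Ammecr1 (0.053), Mxra7 (0.066) and Ppfibp1 (0.071), against a median of 0.52. Nearest to Skil were Lrp8 (0.067), Nsmce3 (0.071) and Klf10 (0.081), against 0.70. Klf10, a TGF-β-inducible zinc finger gene, had a mean of 39.8 CPM in WT-SD, 107 in WT-TGF, 35.9 in KO-SD and 100.1 in KO-TGF.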

How the data were processed

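The authors prepared mRNA libraries with a Kapa kit, aligned single-end reads with TopHat against mm10, and used HTSeq for strand-specific counts of RefSeq genes. The deposited values are raw counts, 1 whole number per gene and library. Reads with several alignments (11.2% to 11.7%), on no gene (10.3% to 15.4%) or on overlapping genes (0.225% to 0.274%) were left out of library sizes and tests.

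Genes with RPKM >1 in at least 1 library, with exon lengths from GENCODE vM21, were scaled by TMM and tested with the quasi-likelihood test of edgeR 4.0.16 (R 4.3.3), with Benjamini-Hochberg adjustment over 11477 genes, in 1 fit of 12 libraries with a mean per group. Depth was 19898050 to 22827706 counts, and an exact test of 3 libraries against 3 could not go below p = 0.1. DESeq2 1.42.0 and the other alternatives are listed with the limits. Replicates of a group differed by more than sampling noise (chi-square per degree of freedom 1.35 to 5.41). The members and gene lists were chosen with earlier results of these data known. Named in each pathway list are up to 2 genes that rose most and up to 2 that fell most with TGF-β in WT (FDR <5%, mean of 1 CPM or more in 1 of both groups), and for Smad3, Smad7 and Skil the 3 genes most like them. Some genes of the lists are not reported here and were left out of their counts.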

Additional observations from a re-analysis of the deposited data

Results flagged for a closer look

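Smad5 and Ski were the members whose response to TGF-β differed between genotypes by edgeR's interaction test. The response of Smad5 in KO minus that in WT was -0.22 on the log2 scale (SE 0.044, edgeR adjusted p = 0.000202), with all 3 treated WT libraries above and all 3 treated libraries labelled KO below their untreated ones. For Ski the difference was -0.17 (SE 0.034, edgeR adjusted p = 0.000226), with the same arrangement of libraries. These opposite directions depended on the scaling. With library size alone the log2 fold changes with TGF-β were -0.078 in WT and -0.35 in KO for Smad5. For Ski they were -0.040 in WT, not called, and -0.26 in KO. Over 17 alternative settings the difference lay between -0.27 and -0.18 for Smad5 and between -0.22 and -0.13 for Ski and was called in each, while 25.4% of all genes tested were called in this comparison.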

How the results depend on the processing

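The alternatives were library size alone for the scaling, DESeq2 for the test, CPM >1 in 3 libraries or no limit as the filter, a separate fit for each pair of groups, a replicate block, and leaving out each of the 12 libraries. Of 889 log2 fold changes of members under them, 785 kept direction and side of the threshold, 33 lost a call, 15 gained 1 and 56 changed sign. Skil, Smad7, Smad6, Smad9 and Smad3 with TGF-β, and Smad9, Smad6, Smad7 and Ski between genotypes, kept their calls in every setting that tested them. So did Smad5, as higher for KO in SD (0.12 to 0.22) and as lower with TGF-β in KO (-0.35 to -0.12). Smad9 for KO in TGF was not tested in the fit of those groups alone, since it was under the RPKM limit there.

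With library size alone, 2 members rose and 7 fell with TGF-β in WT, no member was higher in KO in TGF, and of all genes 2642 rose in WT, 2298 rose in KO, and 1643 were higher and 5407 lower in KO in TGF, against 4125, 4014, 3128 and 3198 with TMM. The sign then changed with TGF-β in WT for Smad1 (-0.10), Smad5 (-0.078) and Ski (-0.040), with TGF-β in KO for Smad2 (-0.20) and Smad1 (-0.0016), for KO in SD for Smad2 (-0.072), Smad1 (-0.030) and Smad4 (-0.058), for KO in TGF for Smad2 (-0.11) and Smad4 (-0.090) and for the difference between responses for Smad2 (-0.034), Smad3 (-0.029), Smad4 (-0.032) and Smad6 (-0.042). Of these, Smad1 and Smad5 in WT, Smad2 in all but the difference between responses and Smad4 for KO in TGF were called lower, as were, with their sign kept, Smad2 (-0.16) and Smad4 (-0.21) in WT, Smad4 in KO (-0.24) and Smad5 for KO in TGF (-0.15). This scaling moves all genes together by its construction.

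The other changes of sign were near 0. With DESeq2 they were KO in SD for Smad2 (-0.010) and the difference between responses for Smad7 (0.011) and Skil (0.012). With the CPM filter it was TGF-β in WT for Smad2 (0.012), and without a filter this one (0.025) and the difference between responses for Smad2 (-0.0050), Smad4 (-0.0030) and Smad6 (-0.012). In separate fits they were KO in SD for Smad2 (-0.016) and Smad4 (-0.0028). With a library left out, KO in SD ran from -0.018 to 0.018 for Smad2 and from -0.0045 to 0.033 for Smad4, KO in TGF from -0.0041 to 0.041 for Smad2, TGF-β in KO from -0.0039 to 0.035 and TGF-β in WT from -0.025 to 0.0099 for Smad2. The difference between responses ran from -0.0057 to 0.059 for Smad2, -0.0055 to 0.059 for Smad4, -0.051 to 0.066 for Smad6, -0.067 to 0.025 for Smad7 and -0.050 to 0.041 for Skil, and 0 to 1 members had a higher response in KO, the latter being Smad1 without KO-TGF replicate 1 or 2.

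Replicate numbers did not pair the libraries, as deviations of same-numbered libraries correlated at -0.017 to 0.068 over 12 pairs. With the replicate number as a block Smad4 with TGF-β in WT (-0.057) was called lower, so that 4 members were lower there, and no other call of a member changed. Depth left Smad9 in KO-TGF at 33 to 40 counts per library, the lowest among the members.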

Other observations

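Some textbook targets of the pathway differed between genotypes in their response to TGF-β by edgeR's interaction test, and those named here were chosen after their values were seen. Of the 12 targets of TGF-β and SMAD2 or SMAD3, 2 had a higher log2 response in KO and 5 a lower one, and of the 7 BMP targets 1 had a higher and 2 a lower one, where 8.77% of all genes were called higher and 16.6% lower. For the 12 it was 2 higher and 9 lower with library size alone, and 2 and 4 with DESeq2. The counts of BMP targets were the same in both. Beside Pmepa1 and Tgfbi the lower ones of the former were Fn1 (fibronectin, -0.29, edgeR adjusted p = 9.45e-12), Col1a1 (a collagen chain, -0.23, edgeR adjusted p = 4.99e-05) and Ccn2 (a matricellular protein, -0.11, edgeR adjusted p = 0.0243), and of the latter Id2 (-0.82) and Hey1 (-0.94). Cdkn2b, which encodes the cell cycle inhibitor p15, went from 62.0 ± 3.89 CPM (SD, n = 3) in WT-SD to 95.5 ± 2.49 in WT-TGF and from 53.5 ± 1.89 to 137.9 ± 1.32 in the libraries labelled KO, a larger rise by 0.74 on the log2 scale (edgeR adjusted p = 9.45e-12). Ltbp2, a latent TGF-β binding protein of the matrix, went from 604 ± 8.04 CPM in WT-SD to 666 ± 9.21 in WT-TGF and from 344 ± 6.54 to 634 ± 10.98 in the libraries labelled KO, again a larger rise by 0.74 (edgeR adjusted p = 3.50e-17). Id4, a BMP target, fell from 13.0 ± 0.974 to 6.54 ± 0.627 CPM in WT, while it was at 3.39 ± 0.546 in KO-SD and 2.96 ± 0.457 in KO-TGF (difference 0.80, edgeR adjusted p = 0.00208).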
